A study of Saccharomyces cerevisiae with 104 samples.

Results

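HSP12 and 9 further general stress genes of budding yeast (Saccharomyces cerevisiae) were followed across 29 point mutants of histones H3 and H4 and the wild type (WT). The 10 genes were chosen by name, with earlier results of these data known, and all 10 were found among the 7122 genes of the count table. All 10 passed the filter on low counts that left 5822 genes for testing.

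The study measured RNA by QuantSeq, a 3' mRNA-seq method that reads near the end of each transcript, in 22 H3 mutants, 7 H4 mutants and WT. The mutants each carry 1 amino acid substitution, written as histone, residue and new residue, so that H3T3D has aspartate in place of threonine at position 3 of H3. The substitutions are H3T3A, H3T3D, H3K4Q, H3K4R, H3K18A, H3S31D, H3K36A, H3K36Q, H3K36R, H3K37Q, H3K37R, H3R40K, H3S86A, H3S86D, H3K115A, H3K115Q, H3K115R, H3K121A, H3K121Q, H3K121R, H3K122A, H3K122Q, H4K44Q, H4K44R, H4R55A, H4Y88A, H4Y88F, H4K91Q and H4K91R. All strains, WT included, share the MSY196 background, which derives from S288C. There were 2 libraries each of H3T3A and H3T3D, 4 each of H4Y88A and WT, and 3 of each other genotype, 90 in all. How many strain isolates lie behind the libraries of a genotype, and the growth phase of the RNA cultures, are not given in the sources used here, so p-values measure the spread between these libraries, which may be partly technical.

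The general stress genes are induced together when yeast meets heat, oxidants, osmotic shock or starvation. Their promoters carry the stress response element, which binds the paired zinc-finger factors Msn2 and Msn4, and these factors are held out of the nucleus in growing cells by cAMP-dependent protein kinase (PKA) and TOR signalling. HSP12 encodes a small membrane-associated heat shock protein and is among the most responsive genes of the group, which makes it a common reporter of stress and slowed growth. Substitutions to glutamine are often used to imitate acetylated lysine and those to arginine to keep its positive charge, while aspartate is often used to imitate a phosphorylated serine or threonine.

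By RefSeq's R64 annotation the members lie on 8 chromosomes and none overlaps another annotated gene. HSP12 (YFL014W) lies at chrVI:107256-107585, DDR2 (YOL052C-A) at chrXV:231570-231755, HSP26 (YBR072W) at chrII:382030-382674, HSP42 (YDR171W) at chrIV:806621-807748 and SPI1 (YER150W) at chrV:468370-468816. GAD1 (YMR250W) lies at chrXIII:770801-772558, ALD3 (YMR169C) at chrXIII:599352-600872, CTT1 (YGR088W) at chrVII:654634-656322, XBP1 (YIL101C) at chrIX:175307-177250 and DCS2 (YOR173W) at chrXV:657264-658325. ALD3 is close in sequence to its neighbour ALD2, and reads that could not be placed in 1 position were left out by the authors, so the counts of both are uncertain.

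Gene counts ran from 768398 to 3143681 per library, except for library S55 of H3K4R with 24010, and no member was called in H3K4R over all libraries. The column names carry sample numbers, which were divided by hand, after the data were seen, into 3 runs called sets here. They are set 1 (S46 to S93, 44 libraries, 3 of WT), set 2 (S94 to S117, 22 libraries, none of WT) and set 3 (S118 to S141, 24 libraries, 1 of WT). The numbers run on without a gap at both cuts. From S94, an H3K36A library, genotypes of set 1 recur, and S118 is of H3K37Q, a genotype of no other set. What separates the sets in the laboratory is not given in the sources used here. Both H3T3 mutants, H3K18A, H3K37Q, H3K37R, H3R40K, H3S31D and H4R55A were measured in set 3 alone, against WT libraries of which 3 in 4 came from set 1. A comparison with WT within set 3 has 1 WT library, which the fit assumes to vary like the libraries of the other genotypes, so its p-values hold no measure of the spread of WT there, and the WT level of set 3 is not replicated. Levels are counts scaled to 1000000 counts per library (CPM) with TMM factors, a fold change is log2 of mutant over WT, and a gene is called at an adjusted p under 0.05 in edgeR's quasi-likelihood test over all 90 libraries, with Benjamini-Hochberg adjustment over 5822 genes in each comparison.

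HSP12 had the widest range of the members. Its genotype means ran from 9.28 CPM in H4R55A to 545 CPM in H3T3D, a 58.8-fold range, and WT stood 20th of 30 with 23.7 CPM. Below H3T3D followed H3S86D with 137.5 CPM, H3T3A with 119.8, H3K36Q with 100.8, H4K91Q with 94.1, H3K36A with 81.6 and H3K36R with 67.2 CPM. The lowest means were those of H3K37R with 11.9, H3K18A with 11.1 and H4R55A with 9.28 CPM. These genotypes were measured in set 3 alone, where the median over 24 libraries was 14.8 CPM. In the 43 libraries of set 1 other than S55 the median was 38.2 CPM. WT libraries came mostly from set 1, so the low means and the rank of WT are not separated from the sets. Of the 29 pairs of neighbours in this order, H3T3D and H3S86D were the only pair whose libraries did not overlap, so neighbours in the order below H3T3D are not separated by the spread between libraries.

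**Figure D1:**
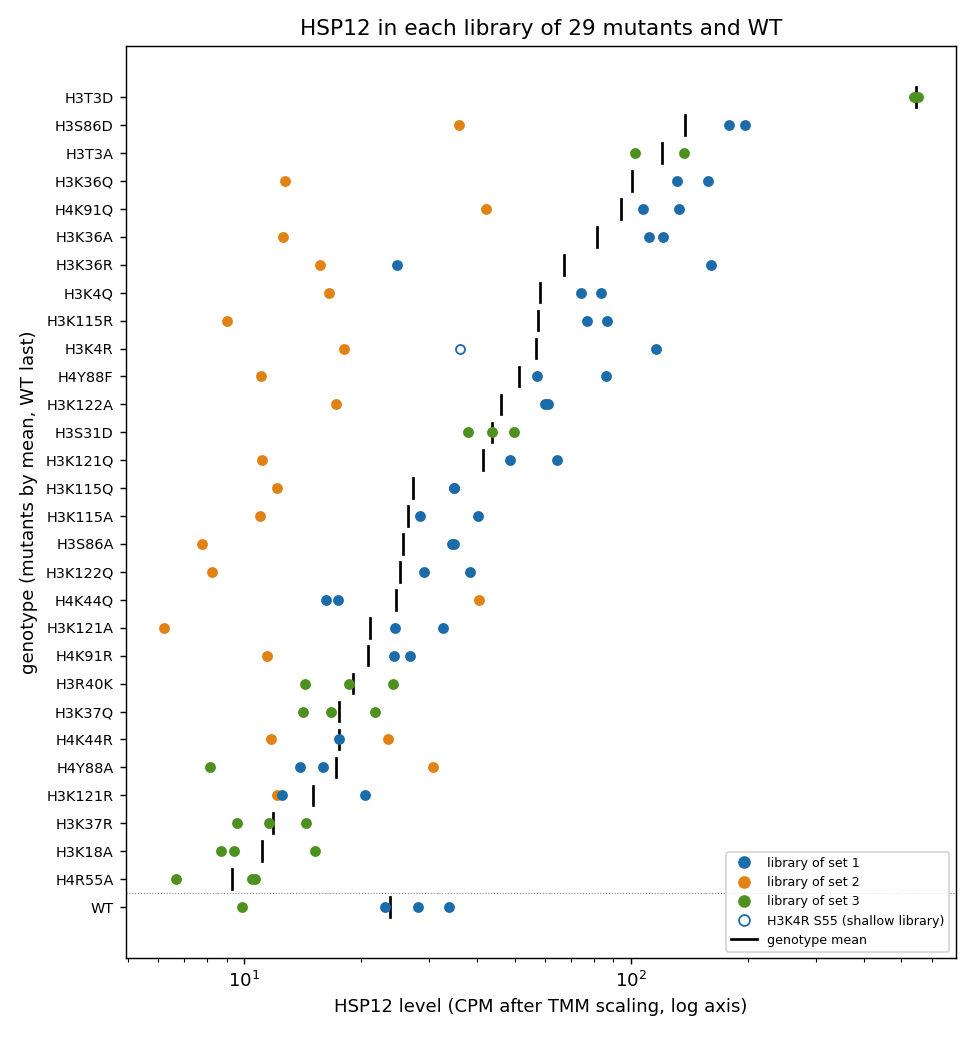
HSP12 level in each library (horizontal log axis, CPM after TMM scaling) for the 29 mutants by mean and WT in the last row; points are libraries coloured by set of sample numbers, the open point is the shallow H3K4R library S55 and vertical bars are genotype means. The H3T3D libraries lie near 545 CPM, and orange set 2 libraries mostly lie left of the blue set 1 libraries of the same genotype.

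The spread of HSP12 between libraries of one genotype was wide. Its biological coefficient of variation, the part of the spread not due to counting, was 61.04%, against a median of 21.02% over all tested genes, with 61.4% for DDR2, 56.3% for HSP26 and 26.3% to 37.6% for the other members. Library counts of HSP12 ran from 9 to 1080 with a median of 37 outside S55. DDR2 had a median of 6 counts and was at 0 in 5 libraries, and XBP1 had a median of 7 and was at 0 in 1, so both are measured coarsely.

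Over the 290 combinations of member and mutant, 16 were called higher than in WT and 0 lower, in 5 mutants. The same fit called 0.856% of all gene and mutant combinations higher and 0.548% lower. At an unadjusted p under 0.05, 43 member combinations (14.8%) were higher and 10 (3.45%) lower, against 5.78% and 5.77% of all gene and mutant combinations, and 152 of the 290 fold changes were positive. H3T3D had 8 called members, H3K37Q 3, H3T3A and H3S86D 2 each and H3R40K 1. These comparisons share the 4 WT libraries and are not independent of each other. Since the members were chosen with earlier results of these data known, the shares describe them and are no test of the group.

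**Figure D2:**
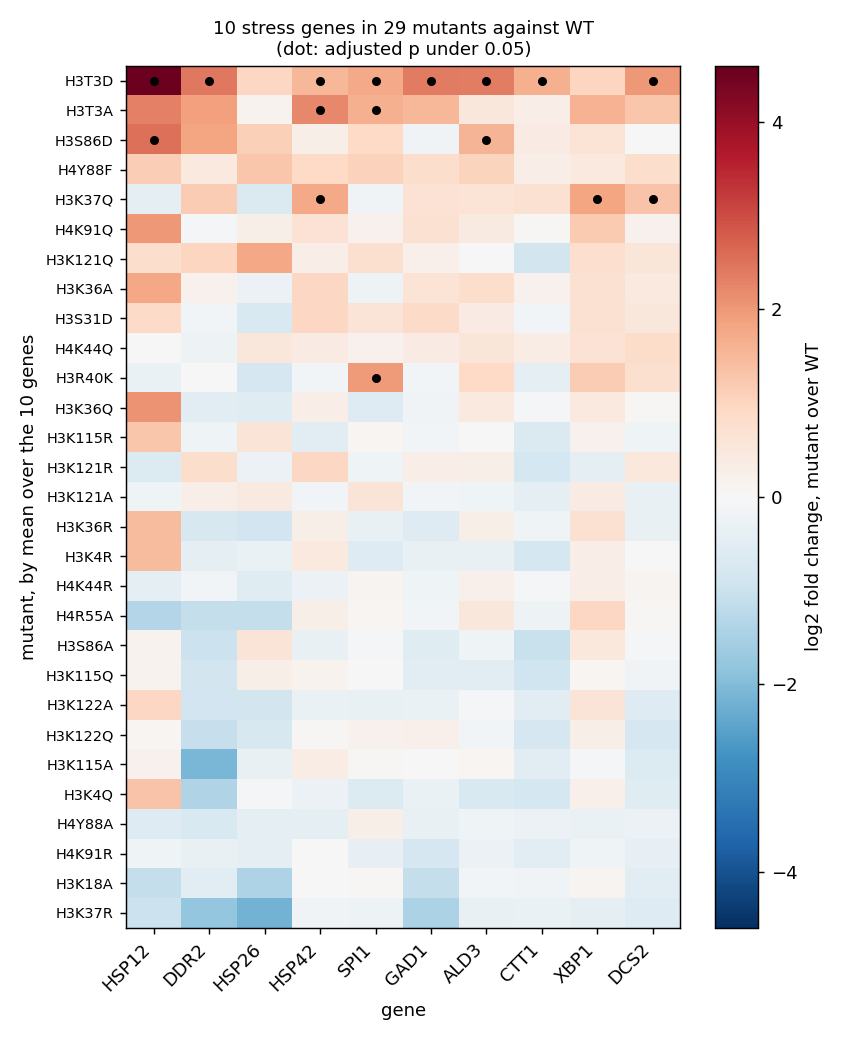
Log2 fold change over WT (colour, red higher and blue lower) of the 10 genes (columns) in the 29 mutants (rows, by mean over the 10 genes); a dot marks an adjusted p under 0.05. The 16 dots all stand on red cells, with 8 of them in the top row, H3T3D.

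In H3T3D, 8 of the 10 stress genes rose over WT, and HSP12 rose about 23-fold. The median fold change of the 10 was 1.87 (log2), against −0.04 over all tested genes, of which 4.53% were called higher and 3.28% lower. Position 3 of H3 is the threonine that the mitotic kinase haspin phosphorylates in many eukaryotes. Library numbers were 2 for H3T3D and 4 for WT throughout, and in RNA of whole cultures a higher level in every cell cannot be told apart from a larger share of cells with a high level.

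Of HSP12 and the 2 small heat shock chaperones, 2 rose. HSP12 had 539 and 551 CPM in H3T3D, against 23.1, 33.9, 28.1 and 9.86 CPM in WT, the last being the WT library of set 3. Both H3T3D libraries exceeded every other library of the study. The fold change was 4.52 (log2, SE 0.71, adjusted p = 1.88e-05), and within set 3 it was 5.78 against the 1 WT library there, with an adjusted p of 1.08e-09 that rests on the spread of the other genotypes. HSP42, a small heat shock protein that sorts aggregated proteins, had 49.4 and 54.6 CPM in H3T3D and 16.3, 9.11, 20.6 and 25.3 CPM in WT. It was called in the fit of all libraries (1.53, SE 0.44, adjusted p = 0.0203) but not within set 3 (1.03, adjusted p = 0.188), where the WT library was the highest of the 4. HSP26, the other small heat shock chaperone, had 48.4 and 28.2 CPM in H3T3D and 23.1, 18.7, 25.6 and 11.7 CPM in WT. It was not called over all libraries (0.97, SE 0.65, adjusted p = 0.361), although its groups did not overlap, and it was called within set 3 (1.71, adjusted p = 0.0453).

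Of the surface and unassigned members, both rose in H3T3D. SPI1, which encodes a GPI-anchored cell wall protein, had 78.9 and 61.2 CPM in H3T3D and 31.9, 18.2, 15.1 and 18.8 CPM in WT. Its fold change was 1.76 (log2, SE 0.37, adjusted p = 0.0017), and 1.90 within set 3 (adjusted p = 0.00938). DDR2, a stress-induced gene of unknown molecular function, had 26.97 and 26.41 CPM in H3T3D and 5.44, 2.53, 4.52 and 7.04 CPM in WT, from 54 and 44 counts in H3T3D and 5 to 15 counts in WT. It was called over all libraries (2.43, SE 0.67, adjusted p = 0.0159) and missed the threshold within set 3 (1.91, adjusted p = 0.0628).

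The 3 metabolic and antioxidant enzymes rose, GAD1 and ALD3 by about 5-fold. GAD1, the glutamate decarboxylase that makes gamma-aminobutyrate, had 161.3 and 129.7 CPM in H3T3D and 42.1, 15.2, 31.6 and 24.4 CPM in WT (2.37, SE 0.43, adjusted p = 2.6e-04). ALD3, a cytosolic aldehyde dehydrogenase, had 110.9 and 73.8 CPM in H3T3D and 16.99, 14.17, 18.06 and 22.06 CPM in WT. Its fold change was 2.37 with an SE of 0.34 and an adjusted p of 1.84e-06, the smallest of the members. CTT1, the cytosolic catalase that breaks down hydrogen peroxide, had 86.4 and 61.8 CPM in H3T3D and 44.9, 15.2, 22.1 and 16.4 CPM in WT (1.62, SE 0.34, adjusted p = 0.00136). Against the 1 WT library of set 3 the fold changes of the 3 enzymes were 2.57, 2.06 and 2.17.

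Of the 2 members with regulatory roles, 1 rose. DCS2, a stress-induced relative of the mRNA cap-scavenging enzyme Dcs1, had 57.4 and 43.8 CPM in H3T3D and 17.7, 15.2, 12.0 and 7.04 CPM in WT (1.98, SE 0.43, adjusted p = 0.00199). XBP1, a transcriptional repressor induced by stress and starvation, had 6.493 and 6.002 CPM in H3T3D and 2.04, 1.01, 4.52 and 4.69 CPM in WT, from 10 to 13 counts in H3T3D and 2 to 10 in WT. Its fold change of 0.98 had an SE of 0.59 and was not called (adjusted p = 0.301).

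**Figure D3:**
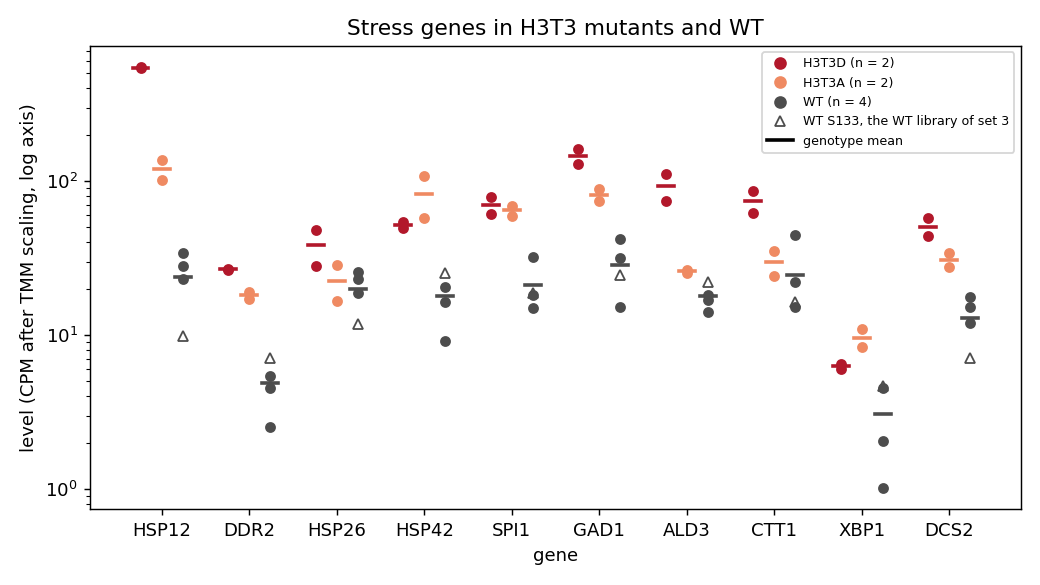
Level of each of the 10 genes (log axis, CPM after TMM scaling) in the libraries of H3T3D, H3T3A and WT, with bars at the genotype means and an open triangle for the WT library of set 3. The widest gap between H3T3D and WT is in HSP12, and the H3T3A points overlap WT in HSP26 and CTT1.

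H3T3D had the highest ratio of alignments that were not unique to reads counted in genes, 8.05 ± 0.17 (SD, n = 2), against 3.72 ± 0.96 in WT (SD, n = 4), and H3T3A had 5.77 ± 0.84 (SD, n = 2). The part of this difference in the gene results was not tested. All 20 libraries of set 3 from other genotypes were lower in HSP12 than either H3T3 mutant, with a range of 6.67 to 49.7 CPM and a median of 14.3 CPM.

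Leaving out 1 of the libraries in turn, HSP12, GAD1 and ALD3 stayed called in H3T3D each time, with HSP12 between 4.25 and 4.75. Without the H3T3D library S134, 3 of the 8 members stayed called. SPI1, CTT1 and DCS2 were lost without that library, and DDR2 and HSP42 without S134, S135 or the WT library S81.

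H3T3A, with alanine at the same residue, had fold changes over WT of 0.17 to 2.33 (log2) in the 10 members, with a median of 1.57 against −0.03 over all tested genes. The comparison shares its WT libraries with that of H3T3D. 2 members rose, where 0.55% of all genes were called higher and 0.739% lower. HSP42 had 108.02 and 57.5 CPM in H3T3A, above the 9.11 to 25.3 CPM of WT (2.21, SE 0.43, adjusted p = 0.00141), and SPI1 had 59.8 and 69.1 CPM in H3T3A and 15.1 to 31.9 CPM in WT (1.63, SE 0.38, adjusted p = 0.016). HSP12 had 102.3 and 137.4 CPM in H3T3A, above every WT library, and missed the threshold over all libraries (2.33, SE 0.72, adjusted p = 0.084). It was called against the 1 WT library of set 3 (3.59, adjusted p = 7.79e-06) and in a fit with the set as a covariate (3.65, adjusted p = 9.73e-04), where the H3T3A libraries are set mainly beside the WT library of their own set, at 9.86 CPM. Against that 1 WT library HSP42 missed the threshold (1.73, adjusted p = 0.0575) and SPI1 was called (1.77, adjusted p = 0.0374). Without H3T3A library S130 neither of the 2 members was called, and SPI1 was also lost without S131 or the WT libraries S81 or S82.

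Set directly against H3T3A, H3T3D was called higher in ALD3 alone, where 0.0859% of all genes were called higher and 0 lower. ALD3 had 110.9 and 73.8 CPM in H3T3D and 25.3 and 26.6 CPM in H3T3A (1.83, SE 0.41, adjusted p = 0.0415), and the call did not survive leaving out any of the 4 libraries. HSP12 in H3T3D was 4.56 times its level in H3T3A, yet was not called over all libraries (2.19, SE 0.83, adjusted p = 0.9999). Within set 3, which holds all 4 libraries, the same difference had a much smaller error (2.19, SE 0.22, adjusted p = 5.07e-06), and CTT1 was also called (1.30, adjusted p = 0.0393), in a fit that called 0.19% of all genes between these mutants. HSP42 and XBP1 had lower means in H3T3D than in H3T3A (52.03 and 82.74 CPM for HSP42, 6.25 and 9.62 CPM for XBP1), and neither difference was called.

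H3S86D, with aspartate in place of the serine at position 86 of H3, had the second highest mean of HSP12. HSP12 had 179.5, 197.2 and 35.9 CPM in H3S86D, the lowest being the library of set 2, and 23.1, 33.9, 28.1 and 9.86 CPM in WT (2.53, SE 0.66, adjusted p = 0.0403). This call was lost in 6 of 7 refits that left out a library (kept without S113 of H3S86D) and with DESeq2 (adjusted p = 0.0603), and was firmer within set 1 (2.69, adjusted p = 3.15e-05). ALD3 had 63.5, 71.8 and 24.1 CPM in H3S86D and 14.2 to 22.1 CPM in WT (1.57, SE 0.32, adjusted p = 0.00332). It was lost without library S88 of H3S86D (1.26). Of all genes, 0.601% were called higher in H3S86D. Alanine at the same residue had no such levels. H3S86A had 34.4, 34.9 and 7.77 CPM of HSP12 and 22.004, 12.5 and 11.2 CPM of ALD3. Between H3S86D and H3S86A, ALD3 was called (1.76, SE 0.36, adjusted p = 0.0104) where 0.0344% of all genes were called higher, and the call was lost in 4 of 6 refits without a library. HSP12 was not called (2.36, SE 0.73, adjusted p = 0.294), although every H3S86D library lay above every H3S86A library, and was called with the set as a covariate (2.34, SE 0.48, adjusted p = 0.00902).

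H3R40K, lysine for arginine at position 40 of H3, raised 1 member. SPI1 had 85.97, 63.5 and 91.1 CPM in H3R40K and 15.1 to 31.9 CPM in WT, with no overlap (1.95, SE 0.34, adjusted p = 6.29e-05), its highest mean of the 30 genotypes. It was called in every refit without 1 library, and against the 1 WT library of set 3 the fold change was 2.12 (adjusted p = 0.00168). The other 9 members were not called in H3R40K, where 4.57% of all genes were called higher and 4.28% lower. HSP12 had 18.6, 24.2 and 14.4 CPM in H3R40K, within the range of WT over both its sets. Its fold change was −0.30 over all libraries and 0.99 against the 1 WT library of set 3.

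In H3K37Q, 3 members rose over WT. HSP42 had 65.9, 76.7 and 35.01 CPM in H3K37Q and 9.11 to 25.3 CPM in WT (1.74, SE 0.40, adjusted p = 0.00244). XBP1 had 8.81, 17.6 and 6.57 CPM in H3K37Q and 1.01 to 4.69 CPM in WT (1.80, SE 0.51, adjusted p = 0.0202), and DCS2 had 22.2, 37.3 and 38.3 CPM in H3K37Q and 7.04 to 17.7 CPM in WT (1.31, SE 0.41, adjusted p = 0.0422). The comparison called 4.29% of all genes higher. Against the 1 WT library of set 3, DCS2 (2.14, adjusted p = 0.0228) and CTT1 (1.23, adjusted p = 0.0364) were called, and HSP42 (1.25, adjusted p = 0.0912) and XBP1 (1.22, adjusted p = 0.306) missed the threshold. Leaving out single libraries, HSP42 stayed called each time, XBP1 was lost without S119 or the WT libraries S46 or S81, and DCS2 in 5 of 7 refits. HSP12 was not called, with 16.8, 21.8 and 14.2 CPM in H3K37Q. Its fold change was −0.41 over all libraries and 0.83 against the 1 WT library of set 3.

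The arginine substitution of the same lysine lay at the other end. H3K37R had negative fold changes over WT in all 10 members, with a median of −0.51 (log2), none of them called, as against 0.0687% of all genes called lower. Against the 1 WT library of set 3, HSP12, CTT1 and DCS2 had positive fold changes of 0.28, 0.26 and 0.27, with none of the 10 called. Between H3K37Q and H3K37R, 3 libraries each and all of set 3, 5 members were called higher in H3K37Q and none lower, where 3.86% of all genes were called higher and 0.584% lower. GAD1 had 49.9, 52.8 and 26.3 CPM in H3K37Q and 8.34, 12.9 and 9.57 CPM in H3K37R (2.10, SE 0.51, adjusted p = 0.00534). HSP42 had 35.01 to 76.7 CPM in H3K37Q and 20.02, 17.01 and 10.6 CPM in H3K37R (1.92, SE 0.44, adjusted p = 0.00322). The difference in DCS2 was 1.91 (SE 0.47, adjusted p = 0.00687), with 6.12 to 12.2 CPM in H3K37R. XBP1 differed by 2.22 (SE 0.59, adjusted p = 0.0138) and DDR2 by 2.95 (SE 0.90, adjusted p = 0.0419). The last 2 rest on few reads, since DDR2 had 13, 23 and 12 counts in H3K37Q and 2, 3 and 2 counts in H3K37R, and XBP1 had 21, 25 and 6 counts in H3K37Q and 2, 3 and 7 in H3K37R. HSP26, ALD3 and CTT1 were not called over all libraries. Within set 3, which holds all 6 libraries, these 3 were called too (1.48, 0.95 and 0.97, adjusted p = 0.0314, 0.0373 and 0.00826), which made 8 of 10 members, in a fit that called 7.01% of all genes higher. HSP12, with 14.5, 11.6 and 9.57 CPM in H3K37R, differed by 0.58 (SE 0.87). Each of the 5 calls over all libraries was lost in at least 1 of 6 refits without a library. GAD1 was lost without H3K37R library S121, HSP42 without S123, DCS2 without S121 or S123, XBP1 without S121, S122 or the H3K37Q library S119, and DDR2 in 5 of 6.

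Genes of chromosome XI were raised in H3K37Q as a block. The median fold change over WT of the 298 tested genes of that chromosome was 0.84 (log2), against −0.04 for the other 5524 genes, and H3K121R had a like shift of 0.89 against −0.01. No member lies on chromosome XI, and none was called in H3K121R over all libraries, where 3.83% of all genes were called higher. MSN4, the gene of one of the stress factors, does lie there and was called in H3K37Q over WT (11.99 ± 2.81 CPM, SD, n = 3, against 4.41 ± 3.32 CPM, SD, n = 4; 1.42, adjusted p = 0.0374). It was not called in H3K121R over WT (1.25, adjusted p = 0.107) or in H3K37Q over H3K37R (1.20, adjusted p = 0.142). The part of the chromosome's shift in the stress genes was not tested.

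Across the 17 pairs of substitutions of one residue, 8 of 170 member tests were called, in 4 pairs, against 0.694% of all gene tests. Besides the 3 pairs above, ALD3 was lower in H4Y88A than in H4Y88F, with 9.46, 14.6, 8.97 and 24.9 CPM in H4Y88A and 48.8, 39.3 and 22.1 CPM in H4Y88F (−1.25, SE 0.34, adjusted p = 0.0412), in a comparison that called 0.859% of all genes lower, the ranges overlapped by 1 library of each, and the call was lost in 5 of 7 refits without a library. All 10 members had a negative difference in this pair, with a median of −1.15 (log2). H4Y88A has libraries in all 3 sets, and without its set 3 library S132 the difference in ALD3 was −1.70. Within set 1, ALD3 (−1.86, adjusted p = 0.00661), HSP12 (−2.26, adjusted p = 0.00661) and HSP26 (−1.88, adjusted p = 0.00774) were called. The other members were not called there, and the share of all genes called in that fit is not given here. H4K91Q over H4K91R had a positive difference in all 10, with none called and a median of 0.67.

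Glutamine over arginine was also taken over the 7 lysines that had both substitutions. No member was called with edgeR or with DESeq2, although all 10 differences were positive (0.14 to 0.79, log2) and 5 had an unadjusted p under 0.05, against 8.11% of all genes at an unadjusted p under 0.05 in either direction and 0.0859% called. DCS2 was higher with glutamine at 7 of 7 lysines, by 0.03 to 1.78 on the log2 scale, and HSP12 at 6 of 7. The other members were higher with glutamine at 4 to 6 of the 7. The largest difference was at H3K37 for DDR2, HSP42, GAD1, ALD3, XBP1 and DCS2. For SPI1 and CTT1 it was at H3K4, where the arginine libraries include the shallow S55. For HSP12 it was at H4K91 and for HSP26 at H3K121. The mean of the 29 mutants against WT gave no called member with either tool, with 0 of 10 at an unadjusted p under 0.05 against 6.61% of all genes, of which 0.137% were called.

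HSP12 and HSP26 differed between the sets within single genotypes. For the 21 genotypes measured in sets 1 and 2, the level of HSP12 in set 2 was 1.75 lower on the log2 scale (SE 0.19, adjusted p = 1.2e-11), and in 18 of the 21 every set 2 library lay below every set 1 library. HSP26 fell by 1.30 (SE 0.20, adjusted p = 1.85e-07) in set 2 relative to set 1, with 17 of 21 genotypes below. CTT1 went the other way, with 0.45 more in set 2 (SE 0.11, adjusted p = 8.22e-04) and 14 of 21 genotypes above. The other 7 members were not called between these sets. Differences between these sets were common, with 21.6% of all genes called lower and 22.4% higher in set 2, so that 3 called members of 10 are no larger a share than among all genes. Median levels of HSP12 were 12.4 CPM in the 22 libraries of set 2 and 38.2 CPM in the 43 libraries of set 1 other than S55. H4K44Q was an exception, with 40.4 CPM of HSP12 in set 2 and 16.3 and 17.4 CPM in set 1.

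**Figure D4:**
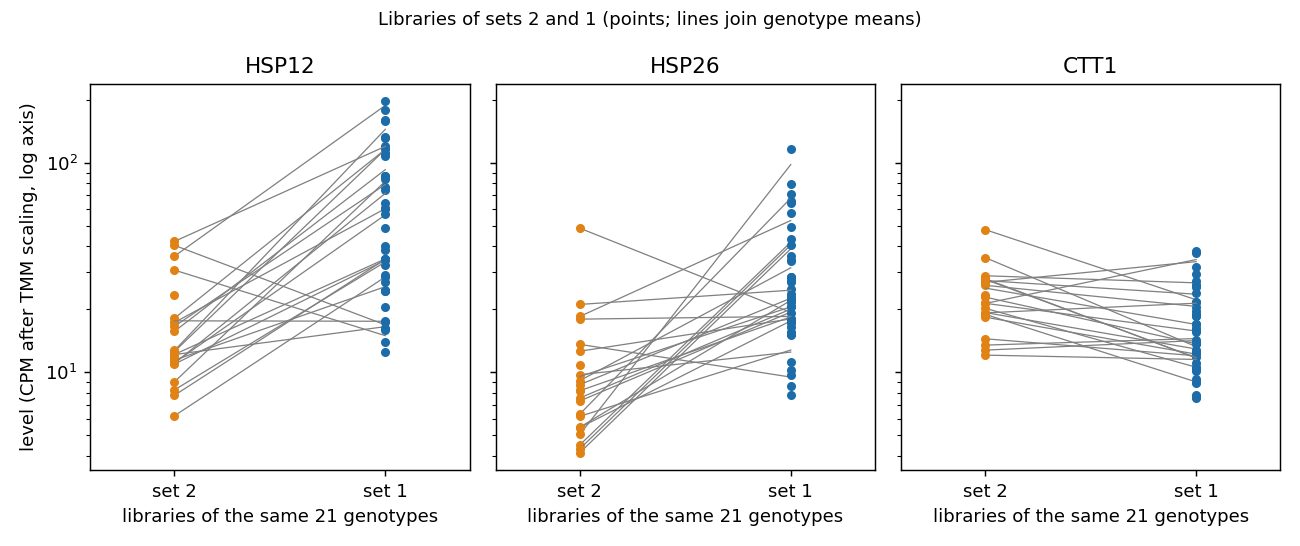
Levels of HSP12, HSP26 and CTT1 (log axis, CPM after TMM scaling) in the libraries of set 2 (left of each panel) and set 1 (right) of the same 21 genotypes; lines join the means of a genotype. Most lines climb toward set 1 for HSP12 and HSP26 and fall for CTT1.

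With the set as a covariate, the coefficient of variation of HSP12 was 41.3%, against 61.04% without it, and 18 member combinations were called higher than WT and 0 lower, where 0.909% of all combinations were called higher. HSP12 was then called in 6 mutants. The 3 beyond H3T3D, H3T3A and H3S86D were H3K36A (1.74, SE 0.46, adjusted p = 0.0191), H3K36Q (2.01, SE 0.45, adjusted p = 0.00853) and H4K91Q (2.13, SE 0.46, adjusted p = 0.00901).

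Lysine 36 of H3 is the residue methylated by Set2 on transcribed genes. Within set 1, HSP12 had 131.2 and 158.4 CPM in H3K36Q, 111.3 and 120.9 CPM in H3K36A and 24.8 and 161.03 CPM in H3K36R, against 23.1, 33.9 and 28.1 CPM in WT. Both libraries of the first 2 mutants lay above all WT libraries, and those of H3K36R lay far apart. The single set 2 libraries of these mutants had 12.7, 12.6 and 15.7 CPM of HSP12, near the median of 12.4 CPM in the 22 libraries of set 2. Set 2 has no WT library to set beside them. The fit with the set as a covariate takes the shift between sets to be the same in every genotype. Within set 1, HSP12 was called in H3K36Q (2.33, adjusted p = 6.8e-04) and H3K36A (1.99, adjusted p = 0.00228) and not in H3K36R (1.66, adjusted p = 0.105). H4K91Q had 132.7 and 107.4 CPM in set 1 and 42.2 CPM in set 2, and was called within set 1 (2.09, adjusted p = 0.00321). H4K91R had 26.9 and 24.4 CPM in set 1 and 11.4 CPM in set 2.

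Over the 21 mutants of set 1, 14 of 210 member combinations were called higher than the 3 WT libraries and 0 lower, where 0.867% of all combinations were called higher and 0.654% lower. In the fit of all libraries 2 of these 210 were called. HSP12 was called in 6 of the mutants, also in H3K4Q (1.46, adjusted p = 0.0258) and in H3K4R (1.91, adjusted p = 0.0255), where the second library is the shallow S55. HSP26 was called in H3K121Q, with 116.7 and 79.6 CPM in H3K121Q, against 18.7 to 25.6 CPM in WT (2.10, adjusted p = 1.04e-04), while the set 2 library of H3K121Q had 5.06 CPM, below every WT library. It was also called in H4Y88F (1.57, adjusted p = 0.00941). H4Y88F also had SPI1 and ALD3 called within set 1 (1.32 and 1.41), and the rest were HSP42 in H3K121R (1.51), ALD3 in H3K36A (1.05), and ALD3 and DDR2 in H3S86D (2.02 and 2.39). In set 3 the 9 mutants gave 13 called combinations of 90, all higher, where 1.96% of all combinations were called higher and 1.57% lower, but against 1 WT library. H3S31D was called there for HSP12, with 49.7, 37.9 and 43.8 CPM against 9.86 CPM in WT (2.15, adjusted p = 0.00396), and not over all libraries (0.88, adjusted p = 0.441).

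Other genes of the pathway were followed in lists set by known function, also chosen with earlier results of these data known. Of 46 tested genes that Msn2 and Msn4 are known to induce, other than the members, 14 (30.4%) rose and 1 (2.17%) fell in H3T3D over WT. Of all genes, 4.53% were called higher and 3.28% lower in H3T3D. The median fold change of the list was 0.88 (log2), against −0.04 over all genes. MSC1 rose by 2.20 (52.5 ± 6.31 CPM in H3T3D, SD, n = 2, against 11.5 ± 3.30 in WT, SD, n = 4), and SOL4, a 6-phosphogluconolactonase relative, rose by 2.20 as well. GSY2, the main glycogen synthase, rose by 1.97 and GOR1, a glyoxylate reductase, by 1.80. The glycogen branching enzyme gene GLC3 (1.74), the trehalose phosphatase gene TPS2 (1.29) and the neutral trehalase gene NTH1 (1.02) were also called. ALD2, the neighbour of ALD3, fell to 16.4 ± 0.58 CPM in H3T3D (SD, n = 2), against 30.8 ± 9.50 in WT (SD, n = 4; −0.92, adjusted p = 0.0423). In H3T3A, 2 genes of this list rose (GSY2 1.72, TPS2 1.31) and ALD2 fell by 1.45 on the log2 scale. Those were 4.35% and 2.17% of the list, where 0.55% of all genes were called higher and 0.739% lower.

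The regulators of Msn2 and Msn4, among them PKA, Ras and TOR pathway genes, gave 0 higher and 1 lower of 26 in H3T3D (RAS1, −0.92). The messages of the factors themselves were not called, with MSN2 at 0.42 (adjusted p = 0.619) and MSN4 at 0.72 (adjusted p = 0.382). A list of 20 genes held chaperones linked to Hsf1, the heat shock factor, and HSF1 itself. MDJ1 was its 1 called gene (0.80, higher), or 5% against 4.53% of all genes called higher, and the median of the list was 0.08. Osmotic stress genes gave 0 of 11 called. Among 13 tested genes that are held down by glucose, YAT1 (1.38) and POT1 (2.69, with 6.35 CPM in H3T3D and 0.961 CPM in WT, so from few reads) rose, and the median was −0.51. Of the ribosomal protein genes, 4 (2.9%) were called lower, a share no larger than the 3.28% of all genes, with a median of −0.50, and their summed level was 219843 ± 7068 CPM in H3T3D (SD, n = 2), against 300055 ± 67874 CPM in WT (SD, n = 4). NIP7 was the 1 of 30 ribosome biogenesis genes called, lower (−0.97).

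**Figure D5:**
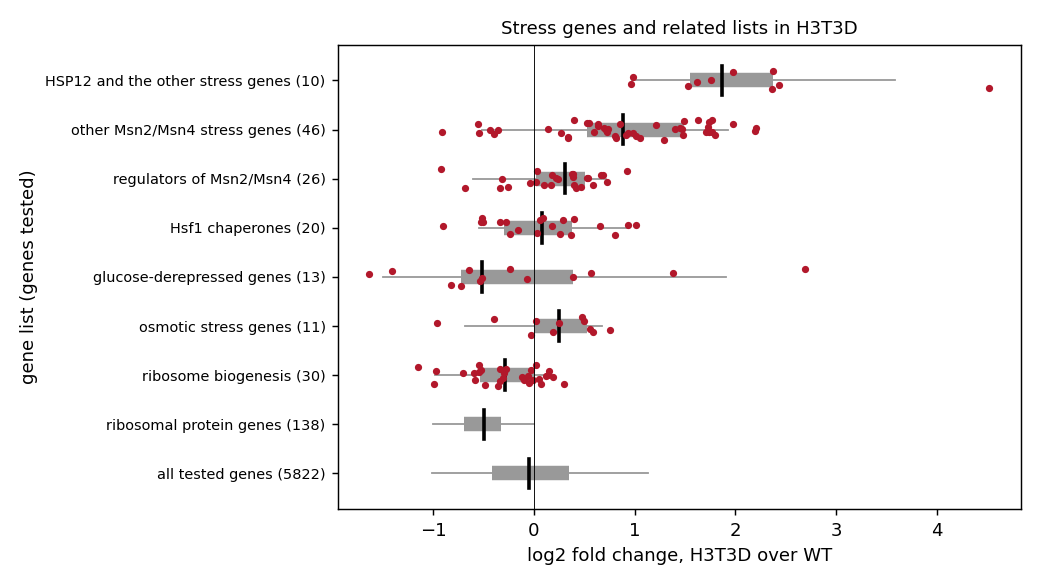
Log2 fold change of H3T3D over WT for the 10 stress genes, 7 lists of related genes and all tested genes (number tested in brackets); black bars are medians, grey boxes the range from the 25th to the 75th percentile, thin lines the 5th to 95th percentiles and red points single genes where a list has up to 46. The 10 stress genes have a median of 1.87 and the other Msn2/Msn4 genes 0.88, while ribosomal protein genes lie below 0.

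In H3K37Q over H3K37R, 15 of the 46 other Msn2 and Msn4 genes (32.6%) were called higher and 0 lower. Of all genes, 3.86% were called higher and 0.584% lower in this comparison. The median difference of the list was 1.13 (log2), against 0.01 over all genes. 13 of the 15 lie off chromosome XI. TSL1, a subunit of trehalose synthase, differed by 3.30 (72.9 ± 39.7 CPM in H3K37Q and 7.45 ± 4.11 CPM in H3K37R, SD, n = 3 each), SOL4 by 2.85, the glycogen phosphorylase gene GPH1 by 2.60 and GLC3 by 2.39. HSP104, the disaggregase, had 187 ± 51.2 CPM in H3K37Q and 48.7 ± 21.2 CPM in H3K37R (SD, n = 3 each; 1.94, adjusted p = 0.00631). Of the 20 genes of the Hsf1 list, 4 were called higher (SSA1 1.94, HSP82 1.70, HSP60 1.13, HSP10 0.86). The regulators gave 0 of 26 called.

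The list was also counted in the other mutants with called members. In H3K37Q over WT, 3 of the 46 (6.52%) were called higher, where 4.29% of all genes were, TPS2 (1.28) off chromosome XI and UGP1 (1.36) and MRP8 (0.93) on it. In H3S86D, 1 of 46 (2.17%) was called higher, SIP18 (1.74), where 0.601% of all genes were, with a list median of −0.02. In H3R40K, 0 of 46 were called higher and 3 (6.52%) lower, where 4.57% and 4.28% of all genes were. The 3 were NQM1 (−1.84), DCS1 (−1.45) and TRX2 (−0.61), with a list median of −0.28. The differences between mutants in these counts were not tested.

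Over the 30 genotype means of log2 CPM, 5346 genes were ranked by their Pearson correlation with HSP12, as a description that rests on shared libraries. The 5 highest were GTT1, a glutathione transferase gene (0.85), GTF1 (0.75), GAD1 (0.73), YNL208W (0.73) and HOR7 (0.72). Without both H3T3 mutants the coefficients of the 5 were 0.73, 0.62, 0.44, 0.42 and 0.56 over 28 genotypes. Among the other 9 members the ranks ran from 3 (GAD1) to 595 (SPI1), and without the H3T3 mutants from 17 (HSP26) to 2831 (SPI1), with GAD1 at 53. Over the 45 pairs of members the coefficients ran from 0.19 to 0.80 with a median of 0.58, and without the H3T3 mutants from −0.06 to 0.71 with a median of 0.44.

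The authors' deposited table of log2 fold changes had the same sign as the fitted value in 261 of the 290 combinations. For HSP12 the authors' deposited table gives 3.85 in H3T3D, 1.73 in H3T3A, 0.96 in H3S86D, 0.41 in H3K36A and 0.31 in H3K36Q. The fitted values in the same order were 4.52, 2.33, 2.53, 1.79 and 2.08. The signs are thus the same, but the authors' values are smaller, and far smaller in H3S86D, H3K36A and H3K36Q. The reason for the difference was not tested.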

How the data were processed

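Total RNA of 90 libraries was read by QuantSeq 3' mRNA-seq, per the labels' protocols, and 14 ATAC-seq samples are not analysed here. The submitters' processing notes name TopHat, HTSeq, featureCounts 1.5.3 and sacCer3, with no role given for each. The authors deposited raw read counts per gene (7122 genes, with summary lines for reads not counted, which were left out) and a table of log2 fold changes of 29 mutants, used for signs and the values named. Columns were matched to genotypes by name. Counts were tested with edgeR 4.0.16 (R 4.3.3): filterByExpr left 5822 genes, TMM scaling, 1 coefficient per genotype over 90 libraries, quasi-likelihood test with 60 residual degrees of freedom, and Benjamini-Hochberg adjustment per comparison. Log2 levels used a prior count of 2. Symbols and coordinates came from RefSeq R64, which matched 6045 of the genes (84.9%). Libraries of one genotype were checked for duplicates by a chi-square test of their counts, and none agreed within counting error. The fits were checked on simulated counts.

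The 10 members and the gene lists were chosen with earlier results of these data known. Besides the members, the text names the 5 genes most like HSP12, up to 4 called genes per list and comparison by size of change, and MSN2 and MSN4. GLC3, TPS2 and NTH1 in H3T3D and HSP104 in H3K37Q over H3K37R were chosen after their values were seen, for their roles. Alternatives were DESeq2 1.42.0, RLE scaling, no filter, fits of both genotypes alone, the set as a covariate, the mean of 28 other mutants in place of WT, each library left out, and, added after the data were seen, fits within set 1 or set 3.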

Additional observations from a re-analysis of the deposited data

Results flagged for a closer look

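In groups of 4 libraries, 2 of 20 combinations of gene and genotype had 1 library far from the rest, where chance gives about 1 in 20. CTT1 had 23.9 CPM in library S48 of H4Y88A, against 18.6 to 19.2 CPM in its other libraries, and DCS2 had 16.0 CPM in library S47 of H4Y88A, against 8.62 to 9.28 CPM.

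The other flagged results are differences between substitutions of one residue, each tested as a contrast in edgeR. H3K37Q exceeded H3K37R by 2.95 in DDR2, 1.92 in HSP42, 2.10 in GAD1, 2.22 in XBP1 and 1.91 in DCS2, all on the log2 scale. ALD3 differed by 1.76 between H3S86D and H3S86A, by 1.83 between H3T3D and H3T3A and by −1.25 between H4Y88A and H4Y88F.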

How the results depend on the processing

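No paired analysis was possible because the columns carry no replicate number. The 16 higher calls became 9 in fits of both genotypes alone and 26 against the mean of the 28 other mutants. For the 2 members called in H3T3A these settings gave 0 and 6. The 1 member called in H3T3D over H3T3A became 0 without the filter on low counts and 3 both in a fit of these genotypes alone and within set 3. With the set as a covariate, the 8 calls between substitutions became 13. Shares of all genes called are not set beside the counts of this section, so changes in count are not results about the members. No fold change of a called member reversed in any setting. Of the 24 single calls, DESeq2, RLE scaling, no filter, the set covariate and fits of both genotypes alone kept 23, 23, 22, 20 and 14, fits within set 3 kept 15 of 20, and those within set 1 kept 4 of 4.

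Leaving out each library in turn (comparisons with its genotype refitted) gave 10 to 17 higher calls (10 without WT library S81) and 0 to 0 lower ones. H3T3D had 3 to 8 members, H3T3A 0 to 2 and H3T3D over H3T3A 0 to 0. The 17 pairs gave 4 (without H3K37R library S121) to 11 (without H4Y88F library S107). The mean of the mutants and the glutamine and arginine comparison gave 0 to 0. At a median of 6 or 7 counts, DDR2 and XBP1 show large differences only.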
